A study of Rattus norvegicus with 24 samples.

Results

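The 12 arrays described here compare the spinal cord dorsal horn of young rats 7 days after a sciatic nerve injury with that of sham-operated rats of the same age. They were chosen by their labels alone and make up 12 of the 24 arrays of the study, 6 after injury and 6 after sham surgery. The other 12 come from adults aged 8 to 12 weeks with the same 2 operations. All rats were Sprague-Dawley, and the younger ones are labelled neonates of postnatal day 10, without saying whether this was their age at surgery or when tissue was taken. In spared nerve injury (SNI) the tibial and common peroneal nerves, both branches of the sciatic nerve, were tied and cut and the sural nerve was spared. In sham rats the sciatic nerve was laid open without a ligature. Both groups were operated on under isoflurane, the pups went back to their mothers, and only the dorsal horn on the operated side was taken. Sham rats thus share the anaesthesia and the exposure of the nerve, and no array of an unoperated neonate was used here. The question put by this comparison was which transcripts differ in the neonatal dorsal horn after the nerve lesion.

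The dorsal horn receives the sensory fibres of the peripheral nerves. Microglia, the resident macrophages of the central nervous system, respond to the injury of these fibres: they divide, change shape and raise receptors, complement components and antigen-presenting molecules. Complement is a cascade of plasma and tissue proteins in which C1q, made of 3 chains, binds a target and starts the classical pathway, and C3 is the component on which the pathways converge. MHC class II molecules show peptides to helper T cells, and the invariant chain Cd74 escorts them through the cell. In whole tissue, fewer or more cells of a type and less or more RNA per cell cannot be told apart.

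Values are log2 expression per probe set, where 1 unit is a 2-fold difference, and the comparison is SNI minus sham. A probe set is called higher or lower where limma's adjusted p is under 0.05 over all 9638 probe sets tested. The filter level, 3.84 log2, is the 40th percentile of all values, and a probe set was tested where at least 6 of the 24 arrays exceeded it. Values under it lie in the dim range of the array and are read with caution. The neonate arrays were alike in scale, with medians from 5.58 to 5.66 log2, 59.7% to 60.1% of probe sets above the filter level and correlations between arrays from 0.990 to 0.998. No array was identical to another. Markers of the labelled tissue were high on all 12 arrays, among them the vesicular glutamate transporter Slc17a6 (11.52 to 11.81 log2), the synaptic protein Snap25 (13.13 to 13.57 log2), the astrocyte filament Gfap (13.69 to 14.37 log2) and the GABA-synthesising enzyme Gad1 (10.26 to 11.09 log2).

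A few arrays stood apart. Sham array 2 was the highest sham array, and SNI array 2 the lowest SNI array, for many of the genes described below. Sham array 3 differed in markers of tissue around the dorsal horn: the mean over 12 Schwann cell genes was 8.75 log2 on it against a sham median of 9.68, and that over 42 fibroblast, meningeal and matrix genes was 6.91 against a median of 7.76. On SNI array 3 these means were 9.91 and 7.58 log2, against SNI medians of 9.87 and 7.81. The mean over 7 motor neuron genes was 8.06 log2 on sham array 3 and 8.44 on SNI array 3, the highest of each group, against group medians of 6.31 and 6.76. Genes of primary sensory neurons ran from 7.55 to 8.53 log2 in sham and from 7.46 to 8.87 after SNI, with SNI arrays 1 and 3 highest. These markers varied as much within the groups as between them. Their part in the results was not tested, and counts are given with and without the arrays numbered 2 and 3.

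**Figure D1:**
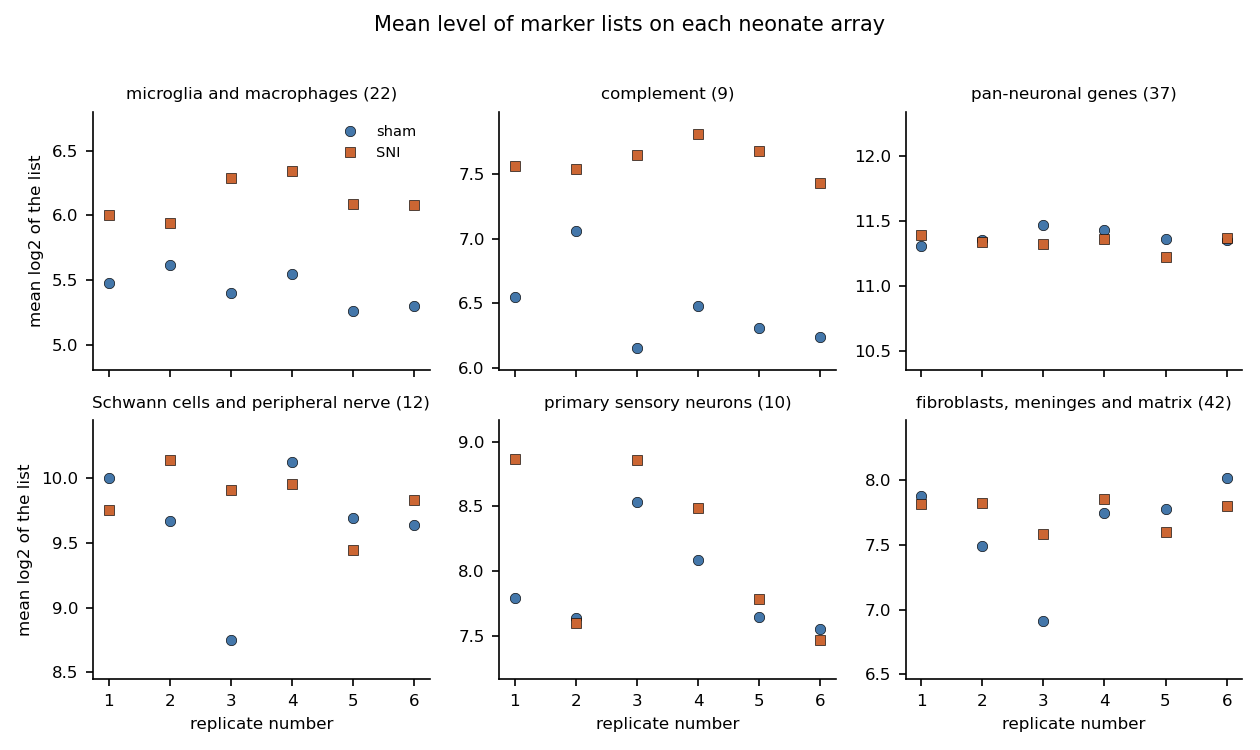
Mean log2 expression (vertical axis) of 6 marker lists on each neonate array by replicate number (horizontal axis), with circles for sham and squares for SNI and the number of genes in brackets. In the microglia and macrophage list and the complement list all 6 SNI arrays lie above the 6 sham arrays, while the pan-neuronal list overlaps and sham array 3 is low in the Schwann cell and fibroblast lists.

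Few probe sets differed in neonates, and nearly all of them were higher after SNI. In the fit without pairing of arrays, 30 of the 9638 probe sets tested were higher after SNI, which is 0.311%, and 0 were lower, which is 0%. At an unadjusted p under 0.05, limma gave 166 higher and 74 lower, and the smallest adjusted p among the lower ones was 0.255. Arrays of equal number deviated together, and with the replicate number as a block per age 33 were higher and 2 lower, Tnnc2 and Ppp1r1b, described further on. The 30 stand for 25 genes with a single symbol, 4 probe sets that match several genes and 1 without a gene name. Their fitted differences ran from 0.58 to 3.04 log2, and 3 of the 30 had no sham array above the filter level, so that their fitted sizes are not measured on both sides. In 26 of the 30 all 6 SNI arrays lay above all 6 sham arrays. This held for 42 of all probe sets tested (0.436%), and the opposite order for 3 (0.0311%), Atn1, Slc30a3 and 1 unnamed, with differences of -0.15 to -0.19 log2 and an adjusted p of 1. Over the 9638 probe sets the median difference was -0.01 log2, and 8079 of them (83.8%) had a 95% confidence interval of the difference that lay within 0.5 log2 either way. Without both arrays numbered 2, limma gave 34 higher, 28 of them among the 30, and 1 lower, the iron exporter Slc40a1, which fell by 0.52 log2 there (adjusted p = 0.0368). Without both arrays numbered 3 it gave 20 higher and 0 lower, 19 of them among the 30. The calls lost there were Timp1, Laptm5, Ifngr1, RT1-Da, Fcer1g, P2ry12, Lgals3, Ctss, Clec4a3 and 2 without a single symbol, and their differences stayed above 0, between 0.54 and 1.89 log2.

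**Figure D2:**
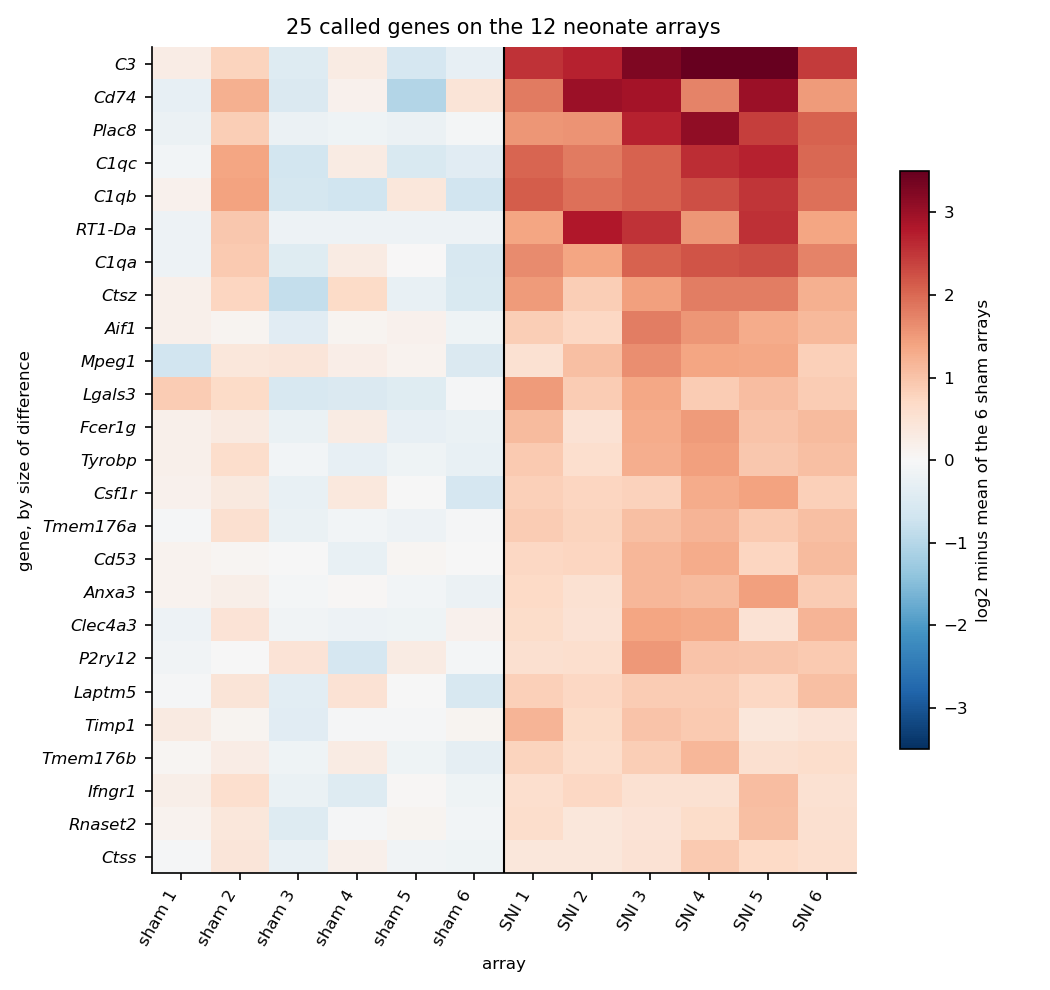
Log2 expression of the 25 called genes (rows, by size of difference) on the 12 neonate arrays (columns), each minus the mean of the 6 sham arrays, with the colour bar in log2 units. The 6 SNI columns are above the sham mean in all 25 genes, and sham array 2 is the reddest sham column.

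Complement genes had the largest differences, with 4 of the 9 measured called higher (44.4%) and a list median of 0.63 log2 against -0.01 over all 7006 genes tested. Of those 7006 genes 25 were called higher (0.357%), the share to be set beside the count of each list below. C3 lay between 3.25 and 4.63 log2 in sham (median 3.84) and between 6.31 and 7.58 after SNI (median 6.83). The lowest SNI array was well above the highest sham array, and only 3 of the 6 sham arrays exceeded the filter level. C3 rose by 3.04 log2, or 8.23-fold (SE 0.31, limma adjusted p = 7.91e-06). The same gene stands in the list of reactive astrocyte genes, since astrocytes as well as microglia can make it.

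The 3 chains of C1q rose together. C1qa had sham values from 8.03 to 9.50 log2 (median 8.51) and SNI values from 9.98 to 10.85 (median 10.50). C1qc had sham values from 5.50 to 7.52 log2 (median 5.91) and SNI values from 7.96 to 8.84 (median 8.20). C1qb had sham values from 5.11 to 7.23 log2 (median 5.58) and SNI values from 7.73 to 8.32 (median 7.89). In each chain the groups did not overlap, sham array 2 was the highest sham array, and without it the others of its group reached at most 8.87, 6.43 and 6.21 log2. The rises were 1.88 (95% interval 1.44 to 2.33), 2.20 (1.63 to 2.77) and 2.13 log2 (1.51 to 2.75) for C1qa, C1qc and C1qb.

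The other complement genes measured in the list, which holds single-symbol probe sets only, were not called. Outside it, a probe set that matches both complement genes C4a and C4b was called. It rose by 1.44 log2, with overlap of the groups (limma adjusted p = 0.00695). Without both arrays numbered 3 its adjusted p was 0.0513. In adults it differed by 3.34 log2. C1s, a protease of the C1 complex, differed by 0.46 log2 (adjusted p = 0.599) and the C1 inhibitor Serping1 by 0.63 log2 (adjusted p = 0.606). Serping1 was nevertheless one of the genes whose groups did not overlap, with 2.94 to 3.85 log2 in sham and 4.14 to 4.21 after SNI. Properdin, Cfp, which stabilises the alternative pathway, and clusterin, Clu, differed by -0.23 and 0.03 log2. A further 11 complement genes on the array were below the filter level on all 12 neonate arrays and were not tested.

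In MHC class II presentation 3 of the 9 measured genes rose (33.3%, against 0.357% of all genes tested), with a list median of 0.48 log2. Cd74 ran from 3.66 to 5.93 log2 in sham (median 4.63) and from 6.20 to 7.69 after SNI (median 7.06), a rise of 2.32 log2 (SE 0.39, adjusted p = 0.00238). RT1-Da, an alpha chain of the class II molecule itself, was at 3.67 log2 on 5 sham arrays and at 4.79 on sham array 2, and ran from 5.24 to 6.65 after SNI (median 5.90). In both genes every SNI array was above every sham array, and SNI arrays 2, 3 and 5 were the highest. RT1-Da rose by 2.03 log2 (SE 0.41, adjusted p = 0.0186). On 5 of the 6 sham arrays it was below the filter level, the replicate number as a block gave an adjusted p of 0.0496 per age and 0.0554 when shared by ages, and without both arrays numbered 3 its adjusted p was 0.172. The list then held 1 called gene, Cd74, and without both arrays numbered 2 it held 4. Cathepsin S, Ctss, a lysosomal protease that trims the invariant chain, rose by 0.58 log2 (adjusted p = 0.0481), with 10.84 to 11.52 log2 in sham and 11.49 to 12.02 after SNI, so that the groups just overlapped. The replicate number as a block per age gave Ctss an adjusted p of 0.0532, while with a block shared by ages its call was kept.

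Other class II genes did not pass. The thiol reductase Ifi30, which unfolds antigens, differed by 0.58 log2 without overlap of the groups (adjusted p = 0.0859). RT1-DMb and RT1-DMa, chains of the peptide-loading molecule, differed by 0.48 and 0.42 log2. RT1-Db1, a class II beta chain, differed by 0.03 log2 with an interval of -0.59 to 0.66, and the class II transcription factor subunit Rfx5 by 0.00 log2 (-0.27 to 0.28). Class I presentation had 0 of 13 single-symbol genes called (limma, 3 at an unadjusted p under 0.05) and a median of 0.12 log2, with 0.23 log2 for the light chain B2m and 0.87 log2 for the immunoproteasome subunit Psmb8 (adjusted p = 1 and 0.992). Outside that list, a probe set that matches both class I genes RT1-A3 and RT1-A2 was called. It rose by 1.09 log2 without overlap of the groups (limma adjusted p = 0.00156).

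Because these genes moved together, the 250 bases before their start sites were read from RefSeq promoters (build GRCr8), which hold 19 of the 25 called genes. Shown are the class II genes Cd74 and RT1-Da, which led their list, C1qb for complement, and Tmem176a, a membrane protein gene of myeloid cells with one of the smallest p-values. Capitals mark GAGGAA, the core bound by the myeloid factor PU.1, ATTGG, the CCAAT box that forms the Y box of class II promoters, and AGNNACNGA, a core of the class II X box, all searched on both strands (TTCCTC and CCAAT are the reverse complements of the first 2).
RT1-Da, chr20:4515165-4515414, plus strand: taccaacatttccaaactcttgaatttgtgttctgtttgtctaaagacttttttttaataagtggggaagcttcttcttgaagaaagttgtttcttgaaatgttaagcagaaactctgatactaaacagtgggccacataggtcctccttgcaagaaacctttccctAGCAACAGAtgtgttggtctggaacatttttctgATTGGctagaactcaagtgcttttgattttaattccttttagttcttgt
Cd74, chr18:56526956-56527205, plus strand: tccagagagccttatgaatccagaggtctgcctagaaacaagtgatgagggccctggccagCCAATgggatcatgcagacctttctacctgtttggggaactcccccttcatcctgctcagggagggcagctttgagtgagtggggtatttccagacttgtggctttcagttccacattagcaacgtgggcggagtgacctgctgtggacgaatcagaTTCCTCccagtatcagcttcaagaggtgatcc
C1qb, chr5:154407828-154408077, minus strand: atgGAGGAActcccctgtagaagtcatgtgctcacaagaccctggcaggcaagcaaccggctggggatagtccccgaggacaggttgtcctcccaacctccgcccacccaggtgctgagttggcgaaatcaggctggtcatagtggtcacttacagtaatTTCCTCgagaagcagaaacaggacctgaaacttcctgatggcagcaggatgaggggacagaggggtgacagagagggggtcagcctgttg
Tmem176a, chr4:79105569-79105818, plus strand: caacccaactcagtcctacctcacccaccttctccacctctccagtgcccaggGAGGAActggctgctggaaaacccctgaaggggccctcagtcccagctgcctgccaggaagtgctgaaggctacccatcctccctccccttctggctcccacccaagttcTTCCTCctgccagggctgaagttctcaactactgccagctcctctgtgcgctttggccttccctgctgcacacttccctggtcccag
In RT1-Da the X box core lies 83 to 75 bases and the CCAAT box 49 to 45 bases before the start. Cd74 has a CCAAT box 189 to 185 bases and a PU.1 core 32 to 27 bases before its start, and no match to the X box core. C1qb and Tmem176a each hold 2 PU.1 cores, while the promoters of C3 and C1qa hold no match to these 3 motifs. Among the 19 called genes 10 (52.6%) had a PU.1 core, against 23.3% of the 33469 promoters of the same length in the table. A CCAAT box stood in 9 (47.4%) against 34.0% of all, and an X box core in 2 (10.5%) against 14.6%. The longer PU.1 site GAGGAAGT, which contains the core, was found in 2 of the 19, Cd53 and Ctss, against 2.04% of all promoters. An interferon element core, GAAANNGAA, was found in Csf1r and Ctss (10.5% against 8.12%). An NF-kappa B core, GGGANNTTC, was found in C1qa and Rnaset2 (10.5% against 3.36%). A STAT site, TTCNNNGAA, was found in C1qa only (5.26% against 7.67%). These matches describe letters only, and no binding was measured.

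Genes that mark microglia and macrophages made up the largest group. Of 22 measured members 8 rose (36.4%, against 0.357% of all genes tested), and the list median was 0.51 log2. All 22 differences were above 0, against 3225 of all 7006 genes tested, while 1 of the 22 had an interval within 0.5 log2 either way. The shared sign is no separate support, since the list was chosen with earlier results of these data known. All 22 were called higher in adults, whose arrays also counted for the filter. Some members, such as Irf8 and Ptprc, were under the filter level on all or nearly all neonate arrays. With values under that level raised to it, the list median was 0.38 log2. The mean over the list ran from 5.26 to 5.62 log2 in sham (median 5.44) and from 5.94 to 6.34 after SNI (median 6.09). The groups did not overlap, and the highest sham and the lowest SNI array were both numbered 2. Without both arrays numbered 3 the count was 6 of 22, Fcer1g and Laptm5 being lost (adjusted p = 0.0603 and 0.102), and without both numbered 2 it was 8. A further 9 list members on the array were below the filter level on all neonate arrays.

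Several of the 8 are standard microglial markers. Aif1, the calcium-binding protein Iba1 used to stain microglia, ran from 5.73 to 6.31 log2 in sham (median 6.22) and from 6.83 to 7.91 after SNI (median 7.34), a rise of 1.22 log2 (SE 0.17, adjusted p = 1.96e-04). Csf1r, the receptor of the growth factor on which microglia depend, ran from 8.32 to 9.28 log2 in sham (8.92 ± 0.37, mean and SD, n = 6) and from 9.68 to 10.32 after SNI (9.91 ± 0.28), a rise of 0.99 log2 (adjusted p = 7.99e-04). The groups of both genes were separate on every array. The tetraspanin Cd53 rose by 0.97 log2 from a sham range of only 6.11 to 6.50 log2, and the perforin-like Mpeg1 by 1.12 log2 (adjusted p = 3.14e-04 and 0.00347). A second, dimmer probe set of Mpeg1 differed by 1.04 log2 and overlapped (adjusted p = 0.152). Laptm5, a lysosomal membrane protein of blood cells, rose by 0.85 log2 (adjusted p = 0.0103).

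Signalling partners of immune receptors rose as well. Fcer1g, the shared gamma chain of Fc receptors, ran from 8.52 to 9.13 log2 in sham (median 8.79) and from 9.33 to 10.30 after SNI (median 9.92), a rise of 1.08 log2 (adjusted p = 0.00472). Tyrobp, the adaptor also called DAP12, was below the filter level on all 6 sham arrays (2.90 to 3.81 log2) and above it on 5 SNI arrays (3.78 to 4.64), and was at least 1.32-fold higher (adjusted p = 8.72e-04). Plac8, a small cysteine-rich protein of myeloid cells, was at 2.11 to 3.18 log2 in sham and at 3.86 to 5.43 after SNI, at least 1.64-fold higher (adjusted p = 1.96e-04). "At least" sets the SNI mean against the filter level, since no sham array exceeded it. With values below that level raised to it, both calls were lost (adjusted p = 0.456 each). Of the 9 measured genes for Fc receptors and immune adaptors 2 were called, and the inhibitory receptor Fcgr2b, with values under the filter level on all 12 arrays, missed the threshold (adjusted p = 0.0751). Outside the list, both probe sets that match the Fc receptor genes Fcgr2a and Fcgr2al1 were called. They rose by 1.19 and 1.21 log2 without overlap of the groups (limma adjusted p = 3.66e-04 and 3.14e-04). In adults the same probe sets differed by 1.07 and 1.11 log2.

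Genes typical of resting microglia were among those that rose. P2ry12, the ADP receptor that marks unactivated microglia, ran from 5.96 to 7.03 log2 in sham (median 6.50) and from 7.10 to 8.05 after SNI (median 7.48). Its groups did not overlap, and it rose by 0.93 log2 (SE 0.20, adjusted p = 0.0481), while its second probe set differed by 0.87 log2 with overlap (adjusted p = 0.452). The fractalkine receptor Cx3cr1 differed by 1.10 log2 but was above the filter level on only 2 SNI arrays and on no sham array (adjusted p = 0.917). Tmem119, another microglial marker, differed by 0.23 log2 (-0.34 to 0.80). Of 12 measured homeostatic genes 2 were called, Csf1r and P2ry12, with a median of 0.35 log2. P2rx4, the ATP receptor studied in microglia after adult nerve injury, differed by 0.15 log2 (-0.15 to 0.45), and the transcription factor Irf8 by 0.45 log2 at values under the filter level on all 12 arrays.

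**Figure D3:**
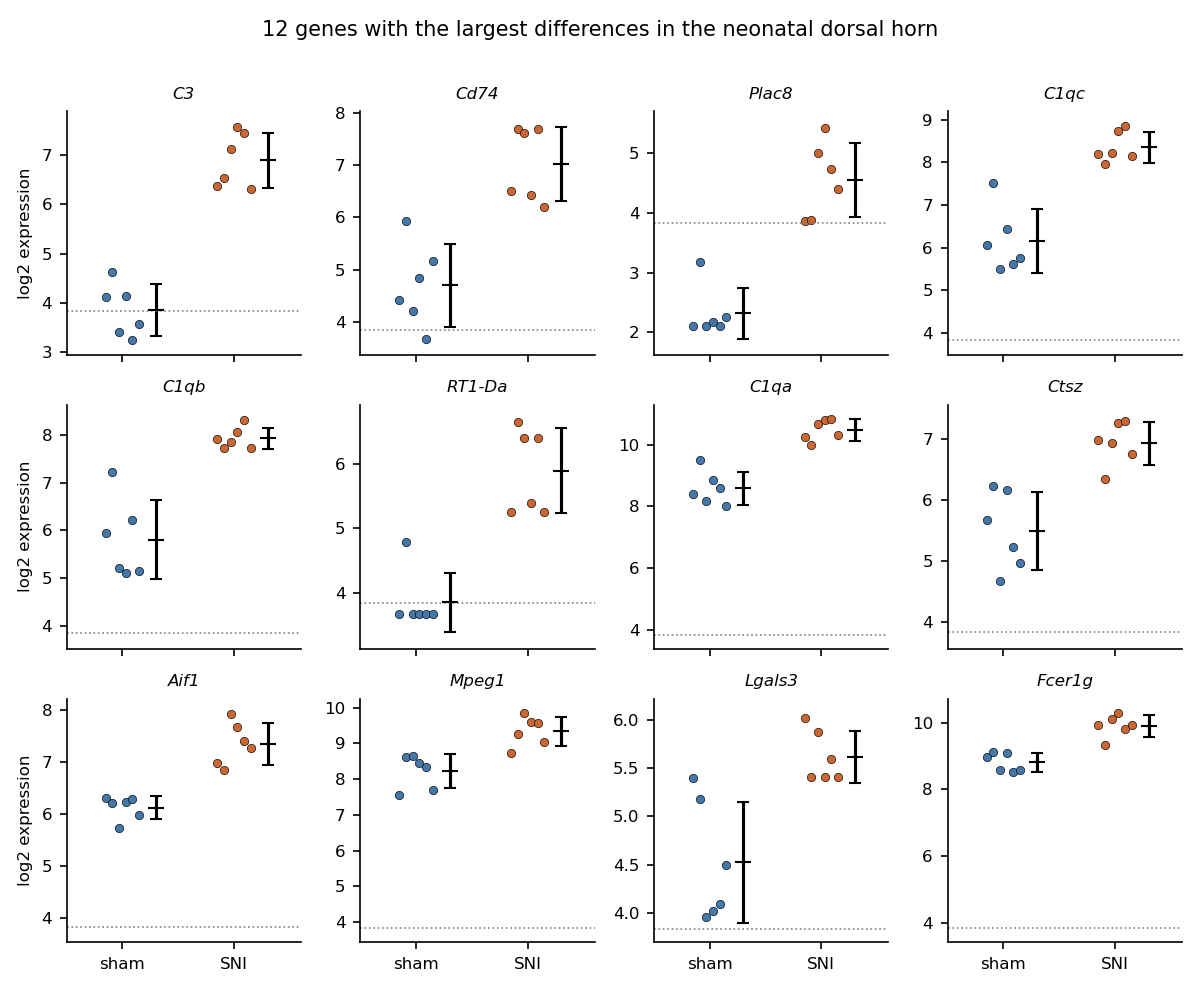
Log2 expression (vertical axes) of the 12 genes with the largest differences on the neonate sham and SNI arrays, a point per array, with the mean and SD beside each group (n = 6) and the filter level as a dotted line. All 12 panels show the 6 SNI points above the 6 sham points. C3, Cd74, RT1-Da and Plac8 have sham points below the dotted line.

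Lysosomal and secreted products of phagocytes gave a short list. Cathepsin Z, Ctsz, ran from 4.67 to 6.24 log2 in sham (median 5.45) and from 6.35 to 7.29 after SNI (median 6.96), a rise of 1.44 log2 (adjusted p = 0.00238). Galectin-3, Lgals3, a sugar-binding protein of phagocytes, ran from 3.96 to 5.40 log2 in sham and from 5.41 to 6.02 after SNI, so that its groups met at 5.40 and 5.41, and rose by 1.10 log2 (SE 0.23, adjusted p = 0.0317). Annexin A3, Anxa3, rose by 0.97 log2 (95% interval 0.71 to 1.24, adjusted p = 1.57e-04), from 8.62 to 9.03 log2 in sham to 9.35 to 10.26 after SNI. A second, dimmer probe set of Anxa3 was not called in neonates. The ribonuclease Rnaset2, named after its values were seen, rose by 0.63 log2 (adjusted p = 0.00695). In the lysosome and phagosome list 3 of 43 were called (6.98%, against 0.357% of all genes tested), Ctsz, Laptm5 and Ctss, with a median of 0.11 log2. The intervals of 33 members lay within 0.5 log2 either way, including those of the protease Ctsd (0.11 log2), the membrane protein Lamp1 (0.08 log2) and the proton pump subunit Atp6v1a (-0.01 log2). Among lipid-handling genes of reactive microglia 5 of 20 were called, all named above, while Apoe, Spp1 and Lpl differed by 0.09, 0.12 and -0.39 log2 (adjusted p = 1 each).

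Tmem176a and its neighbour Tmem176b rose together. The 2 genes lie on chromosome 4 with start sites 556 bases apart and encode related membrane proteins of myeloid cells. Tmem176a ran from 8.47 to 9.25 log2 in sham (median 8.62) and from 9.46 to 9.89 after SNI (median 9.67), a rise of 0.98 log2 (SE 0.11, adjusted p = 2.9e-05). Tmem176b, named after its values were seen, ran from 9.47 to 10.09 log2 in sham (median 9.77) and from 10.37 to 10.97 after SNI (median 10.50), a rise of 0.77 log2 (adjusted p = 0.00166). Neither gene had overlapping groups.

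The remaining calls were small or dim. Ifngr1, the interferon gamma receptor chain, rose by 0.66 log2 (adjusted p = 0.0481), with 8.71 to 9.74 log2 in sham and 9.67 to 10.22 after SNI. Its groups overlapped, and it was 1 called gene among 17 of the interferon response, the list median being 0.18 log2. Timp1, an inhibitor of matrix proteases, rose by 0.78 log2 (adjusted p = 0.0498), from 5.85 to 6.56 log2 in sham to 6.63 to 7.43 after SNI. With C3, it made 2 of 16 reactive astrocyte genes, a list with a median of 0.29 log2 in which Gfap differed by 0.31 log2 (0.12 to 0.51, adjusted p = 0.482). The lectin Clec4a3 passed the test (adjusted p = 0.0450), but all 12 neonate arrays were below the filter level, so no fold is given. For 7 of the 25 genes the call was lost on leaving out 1 array in at least 7 of the 12 cases: Timp1, Ifngr1, RT1-Da, P2ry12, Lgals3, Ctss and Clec4a3, with the highest adjusted p between 0.0688 (RT1-Da) and 0.190 (Timp1). The other 18 kept their calls without any single array. With the 12 neonate arrays fitted alone, however, Ctsz, Mpeg1, Rnaset2 and Laptm5 of these 18 were not called. There limma gave the first 3 an adjusted p of 0.0592, 0.0990 and 0.156.

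Just past the threshold stood 5 genes with an adjusted p between 0.05 and 0.10: the Golgi protein Golm1 (0.0631), Fcgr2b (0.0751), the transcription factor Sox4 (0.0850), the protease Ctsh (0.0859) and Ifi30 (0.0859). Their differences were 0.64, 0.67, 0.55, 0.48 and 0.58 log2. Of the 35 calls with the replicate number as a block per age, 27 were among the 30. Ctsh (adjusted p = 0.0376), the lysozyme Lyz2 (0.0241), the growth factor receptor Tgfbr1 (0.00660), the gelatinase Mmp2 (0.0336), the actin-capping Capg (0.0271) and Limd2 (0.0217) were gained as higher. The troponin Tnnc2, a member of the skeletal muscle list, fell by 0.95 log2 (0.00183) in that fit. The phosphatase inhibitor Ppp1r1b fell by 0.56 log2 (0.0475) there, and neither was called with a block shared by ages. Timp1, Ctss and Clec4a3 were lost.

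Lymphocyte and granulocyte markers were near the bottom of the scale. Of 24 genes of T, B and natural killer cells on the array 22 did not exceed the filter level on any neonate array and were not tested. They include the T cell genes Cd3e, Cd2, Lck, Cd8a and Cd4, whose highest values on neonate arrays were 2.65, 2.11, 2.93, 2.09 and 2.36 log2. The other 2, Thy1, which neurons also make, and Klrk1, differed by -0.02 and -0.08 log2. The neutrophil gene S100a9 crossed the filter level on 2 sham and 3 SNI arrays and differed by -0.03 log2, and 14 of the 15 other neutrophil and mast cell genes on the array were below it on all 12. The pan-leukocyte gene Ptprc was above the filter level on 1 SNI array only. The share of resident microglia and of macrophages from blood in the rises above was not tested.

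Neuronal gene groups had 0 calls and medians close to 0. Of all genes tested 0.357% were called, a share at which 0 calls is usual in lists of this size. Among 37 pan-neuronal genes the median was -0.04 log2, with 31 intervals inside 0.5 log2 either way, and at an unadjusted p under 0.05 limma gave 0 higher and 1 lower. The medians were -0.05 log2 for 18 genes of excitatory and -0.06 for 13 genes of inhibitory dorsal horn neurons, -0.09 for 14 GABA and glycine receptor genes, -0.09 for 26 glutamate receptor genes and -0.09 for 38 ion channel genes, with 0 members at an unadjusted p under 0.05 in each of these 5 lists (limma). In the same order, 13, 7, 10, 17 and 24 members of these lists had intervals inside 0.5 log2 either way. These are 72.2%, 53.8%, 71.4%, 65.4% and 63.2% of the members, each below the 85.6% of all genes tested. Differences in these 5 lists were thus less tightly bounded than over all genes. Differences below 0 were found in 30 of the 37 pan-neuronal genes and in 12, 9, 10, 22 and 29 members of the 5 lists. Over all 7006 genes 3779 were below 0. Several single genes had narrow intervals: Gad1 differed by -0.12 log2 (-0.39 to 0.14), the chloride exporter Slc12a5, also called KCC2, by -0.10 (-0.26 to 0.06), Slc17a6 by -0.04 (-0.21 to 0.12) and the growth cone protein Gap43 by 0.09 (-0.12 to 0.29). The immediate-early gene Fos had a wider one, 0.13 log2 (-0.34 to 0.61). Oligodendrocyte and myelin genes had a median of -0.02 log2 over 20 genes, and the 26 astrocyte genes one of 0.03 log2, with 0 called in either. The sign of the median turned on leaving out 1 array for astrocytes, oligodendrocytes and inhibitory neurons.

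**Figure D4:**
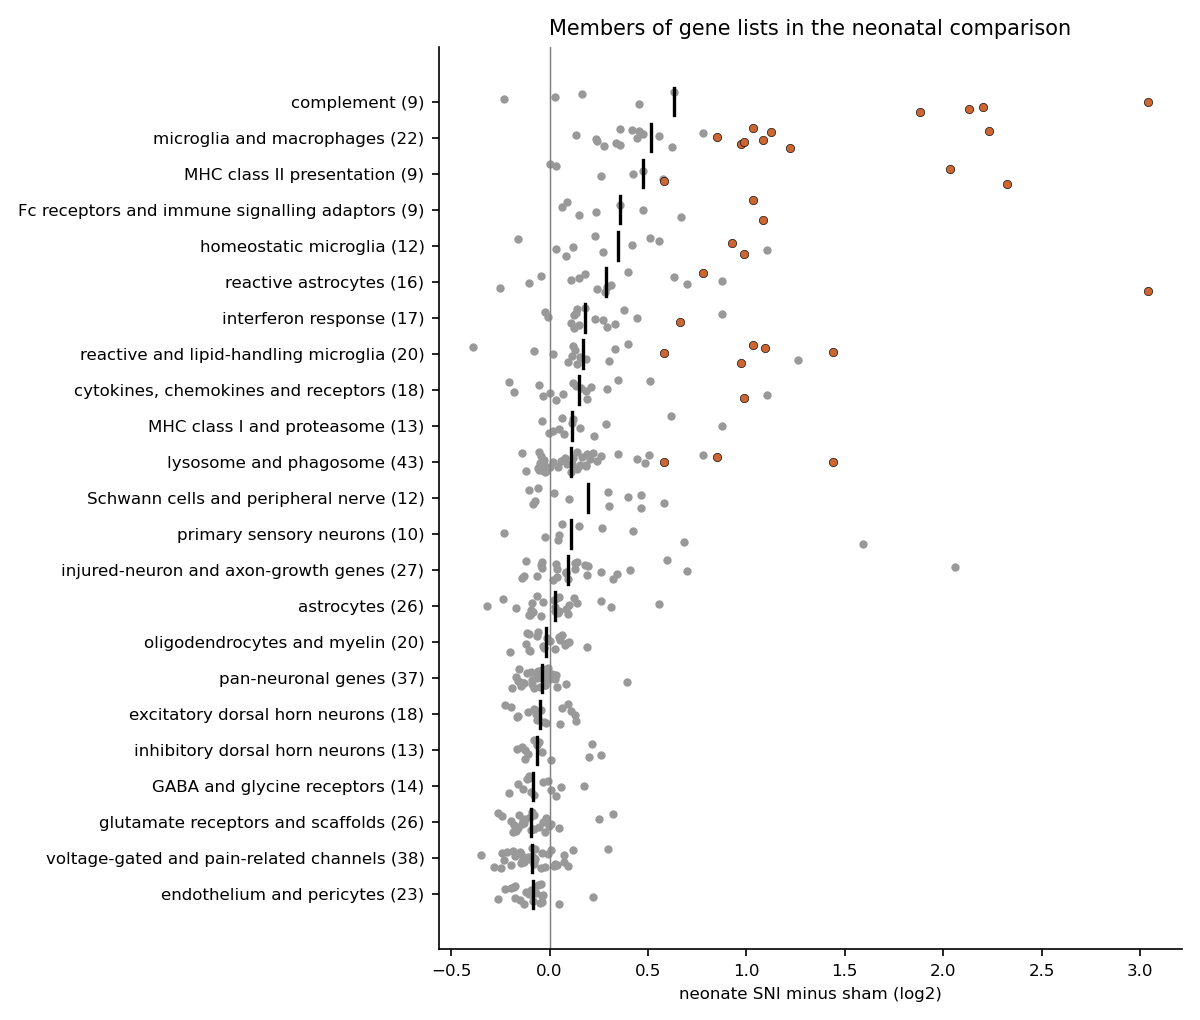
Neonatal SNI minus sham difference in log2 (horizontal axis) of each measured gene in 23 lists (rows, number of genes in brackets), with orange points for called genes, grey points for the others and a black bar at the list median. Medians fall from 0.63 log2 for complement to values between 0 and -0.10 for the neuronal, receptor and channel lists, which hold no called gene.

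Genes of the injured sensory neuron were variable. Reg3b, a secreted lectin made by injured sensory neurons, was at 2.09 to 2.14 log2 on all sham arrays and at 2.09 to 6.52 after SNI, above the filter level on 3 SNI arrays. Its difference of 2.06 log2 had an interval of 0.51 to 3.61 and an adjusted p of 1. Calca, which encodes the peptide CGRP of nociceptors and motor neurons, ran from 2.31 to 5.05 log2 in sham and from 2.31 to 7.26 after SNI, with a difference of 1.59 log2 (-0.48 to 3.66). It exceeded the filter level on sham arrays 3 and 4 and SNI arrays 1, 3 and 4. The motor and sensory neuron lists were also highest on these arrays. Calca is itself a member of both lists, so its own level enters their means and the agreement is no separate evidence. The part of motor and sensory neuron tissue in its difference was not tested. The injury transcription factor Atf3 was below the filter level on all 12 neonate arrays. Npy and Gal, peptides that sensory neurons make after nerve injury, differed by -0.04 and 0.26 log2 (adjusted p = 1 each), and 0 of 27 genes in this list were called (limma, 3 higher at an unadjusted p under 0.05).

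Of the probe sets with lower values after SNI, that of apelin, Apln, a peptide hormone, had the smallest p-value. Its brighter probe set ran from 9.74 to 10.11 log2 in sham (median 10.02) and from 9.29 to 9.85 after SNI (median 9.58). The groups overlapped, and the difference of -0.38 log2 (-0.60 to -0.17) was not called (adjusted p = 0.255, and 0.0532 with the replicate block per age). A second Apln probe set differed by -0.42 log2 (adjusted p = 1).

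Set beside the adults, the neonatal comparison shared most of its calls. In adults 188 probe sets (1.95%) were higher and 5 lower after SNI. Of the 30 neonatal calls 27 (90.0%) were among the 188, and these 27 are 14.4% of the adult list. The 2 comparisons share no array but share the variance estimate of the model. Of the 188, chosen on the adult arrays, 183 had a neonatal difference above 0, against 46.0% of all probe sets tested.

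**Figure D5:**
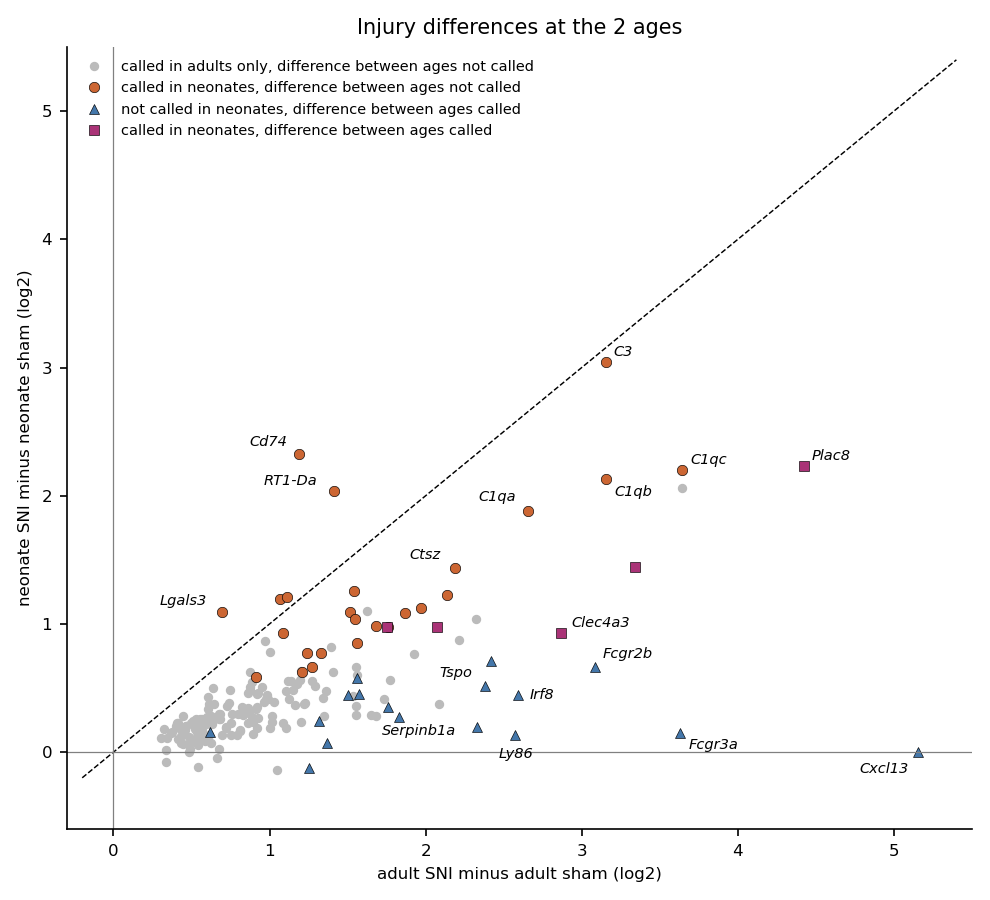
Neonatal (vertical axis) against adult (horizontal axis) SNI minus sham differences in log2 for probe sets called in at least 1 age with higher values, with a dashed line where both are equal and colours and shapes for the tests named in the key. Nearly all points lie below the line. Cd74, RT1-Da and Lgals3 are 3 of the 5 points above it, and Cxcl13 lies at 0 in neonates.

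Some neonatal differences were as large as the adult ones. C3 differed by 3.04 log2 in neonates and 3.15 in adults (difference -0.11, SE 0.44, adjusted p = 1.00), although its sham mean was 3.85 log2 in neonates and 8.03 in adults. P2ry12 differed by 0.93 and 1.09 log2 and Gfap by 0.31 and 0.34 log2. The 3 calls not made in adults were Cd74, RT1-Da and Lgals3, with neonatal differences of 2.32, 2.03 and 1.10 log2 and adult ones of 1.19, 1.42 and 0.69 log2 (adult adjusted p = 0.186, 0.0876 and 0.195). For none of the 3 was the difference between ages itself called (adjusted p = 1.00 each). Their neonatal rise is thus not shown to be particular to that age.

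A difference between ages was called for 22 probe sets (0.228%), with a smaller neonatal effect in all 22. The B cell chemokine Cxcl13 was at 2.09 log2 on all 12 neonate arrays and differed by 0.00 log2, against 5.15 in adults. The Fc receptors Fcgr3a and Fcgr2b differed by 0.15 and 0.67 log2 against 3.63 and 3.08, the Toll-like receptor partner Ly86 by 0.13 against 2.57, Irf8 by 0.45 against 2.59 and the protease inhibitor Serpinb1a by 0.20 against 2.33. Of these 6, the neonate arrays of Cxcl13, Fcgr3a, Fcgr2b, Ly86 and Irf8 were all below the filter level, so their neonatal differences lie in the dim range. When dim values were set to the filter level, the age difference was -3.43 log2 for Cxcl13, -2.12 for Fcgr3a and -1.43 for Fcgr2b. Serpinb1a, with all 12 arrays above it, ran from 4.39 to 4.69 log2 in sham and from 4.67 to 5.10 after SNI, and its age difference was -2.14 log2 (SE 0.15, adjusted p = 9.19e-10). The mitochondrial protein Tspo differed by 0.52 log2 (0.08 to 0.96) against 2.38 in adults, the growth factor precursor Grn by 0.45 (0.17 to 0.72) against 1.51, and both were above the filter level on all neonate arrays. Of the 22, 5 were also called in neonates alone, Plac8, Cd53, Tmem176a and Clec4a3 with 1 probe set of several symbols. Cd53 rose by 0.97 log2 in neonates and 2.07 in adults.

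The size of the differences varied between arrays of equal number. Averaged over the 30 calls, SNI minus sham was 1.12, 1.74, 1.50, 1.57 and 1.39 log2 for the arrays numbered 1, 3, 4, 5 and 6, and 0.50 for those numbered 2. The 30 were chosen on these same arrays, so the sign of a pair's difference is no test. Pair 2 had the smallest difference of the 6 in 25 of the 30. C1qb, with 7.23 log2 on sham array 2, and C1qc, with 7.52 log2 there, show the effect of this array most plainly.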

How the data were processed

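Expression was measured on Affymetrix Rat Expression 230A arrays, 6 biologically independent arrays per group per the series' design text. The submitters' processing notes name GCRMA, with which the authors made the deposited log2 expression values, 1 per probe set and array. Which version they ran was not given in the sources used here. GCRMA subtracts a modelled background and normalizes arrays together, so dim values pile up at a floor.

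Genes were named from the platform annotation where a probe set had 1 symbol (12783 of 15866 non-control probe sets). The 312 with several symbols and 2771 with none were counted and left out of the lists. Called ones with several symbols are named beside the lists they concern. Probe sets above the filter level on at least 6 of 24 arrays were fitted with limma 3.58.1 in R 4.3.3, with 1 mean for each of the 4 groups and a shared variance (20 residual and 3.81 prior degrees of freedom), Benjamini-Hochberg adjustment over 9638 probe sets and two-sided p-values. The code was tested on simulated data. Lists use the probe set with the highest mean per gene. Named genes are the 20 highest differences called, up to 4 members with the smallest p per list, genes called in 1 age or between ages, and index genes. Other genes were chosen after their values were seen. Members and lists were chosen with earlier results of these data known.

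Same-numbered neonate arrays deviated together (correlation of deviations from group means 0.24 to 0.61 in the 6 pairs, mean 0.45, against -0.09 for other numbers). Sham array 5, however, correlated more with SNI array 6 (0.46) than with SNI array 5 (0.24). The numbers were used as a block in alternative fits only, and the main fit did not use them. What they mark is not in the labels. Alternatives were filters, the replicate block, scaling, variance prior, array weights, a floor and leaving out arrays. The number of arrays limits the precision: the median SE was 0.12 log2. Figures were drawn with matplotlib 3.10.9.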

Additional observations from a re-analysis of the deposited data

Results flagged for a closer look

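Among 50 groups of 6 arrays tested for an outlying array in the 25 called genes, 5 had one, where chance gives about 5%. Sham array 2 was above the other sham arrays for Tmem176a (9.25 log2 against 8.47 to 8.65), Plac8 (3.18 against 2.11 to 2.25) and RT1-Da (4.79 against 3.67). Sham array 4 was below the others for Cd53 (6.11 log2 against 6.38 to 6.50), and SNI array 5 above the others for Ifngr1 (10.22 against 9.67 to 9.87).

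The injury effect differed between ages (limma interaction, adjusted p under 0.05) for 19 probe sets with 1 symbol, each with a smaller effect in neonates. On the log2 scale, neonatal minus adult effect, the differences were -5.15 for Cxcl13, -3.48 for Fcgr3a, -2.44 for Ly86, -2.42 for Fcgr2b, -2.19 for Plac8, -2.14 for Irf8, -2.14 for Serpinb1a and -1.94 for Clec4a3. For Cxcl13, Fcgr3a, Ly86, Fcgr2b, Irf8 and Clec4a3 all 12 neonate arrays, and for Plac8 all 6 neonate sham arrays, were below the filter level. When dim values were set to that level, the differences were -3.43, -2.12, -2.25, -1.43, -1.77 and -1.58 for these 6 in turn and -3.39 for Plac8. Further ones were -1.86 for Tspo, -1.70 for the dimmer probe set of Anxa3, -1.55 for Cd37, -1.40 for Rac2, -1.29 for Pycard, -1.12 for Plek and -1.10 for Cd53. The smallest were -1.08 for the oxidase subunit Cyba, -1.06 for Grn, -0.99 for Ifi30 and -0.78 for Tmem176a. The brighter Anxa3 probe set differed by -0.79 and was not called (adjusted p = 0.0866). On leaving out 1 of the 24 arrays, Cyba lost its call in 19 cases and Tmem176a in 13, and the other 17 kept theirs. Among the other alternatives, Cd53 and Tmem176a lost it with the replicate block per age, Tmem176a also with the 60th percentile filter, Plac8 and Cyba without the filter on low values, and Cyba also with median centring.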

How the results depend on the processing

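In neonates, probe sets higher after SNI numbered 30, and 18 with the 12 neonate arrays fitted alone, 23 to 31 without 1 array, and 23 without a filter. Lower ones numbered 0, but 2 with the replicate block per age, 1 with a block shared by ages, 1 without both arrays numbered 2, and 0 to 1 without 1 array. Of the 25 genes, 11 kept their call in all 24 alternatives and 0 reversed. Among named genes the block shared by ages lost Timp1, RT1-Da and Clec4a3 (adjusted p 0.0662, 0.0554 and 0.0689) and gained Lyz2, Fcgr2b, Ifi30, Tgfbr1, Ctsh, Capg and Limd2, and the block per age changed the calls given with its results. In adults the higher count was 188, with 102 at a 60th percentile filter and 164 to 192 without 1 array, and the lower count 5, with 27 and 33 with the blocks, 15 with array weights and 3 to 10 without 1 array. Between ages 22 were lower in neonates, 6 at the 60th percentile filter and 19 to 29 without 1 array, and higher ones numbered 0 to 0. Groups without overlap numbered 42 above and 3 below: 1 and 1 below with median centring and quantile scaling, 69 above and 11 below without both arrays numbered 2, 13 below without both numbered 3, and 45 to 59 above and 3 to 10 below without 1 array, where fewer arrays make separation easier. Leaving out both arrays of 1 number was chosen after seeing the data. Dim probe sets limit the rest: when dim values were set to the filter level, Plac8 differed by 0.72 log2 and Tyrobp by 0.41. Causes were not tested.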

Other observations

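The 3 measured skeletal muscle genes, Tnnc2 among them, were all lower after SNI, with a median of -0.38 log2. In the main fit 0 were called and 2 were lower at an unadjusted p under 0.05 (limma). Their mean ran from 8.22 to 9.46 log2 in sham and from 7.58 to 9.08 after SNI. The part of muscle tissue in this was not tested. Several other gene groups outside the inflammatory lists moved by little. All 39 measured ribosomal protein genes differed by more than 0, with a median of 0.10 log2, or 0.06 without sham array 3, and 0 called (limma, 0 at an unadjusted p under 0.05). Of 23 endothelial and pericyte genes 0 were called, with a median of -0.08 log2, and of 24 genes of cholesterol synthesis and uptake 0 were called, with a median of -0.09 log2 and 1 lower at an unadjusted p under 0.05. The 12 Schwann cell genes had a median of 0.20 log2, and -0.03 without sham array 3. The 42 fibroblast, meningeal and matrix genes had a median of 0.08 log2, and -0.07 without that array.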
